A study of Mus musculus with 11 samples.

Results

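The expression of 10 genes for matricellular and adhesive matrix proteins was followed in cardiac progenitor cells and in C2C12 myoblasts. The genes were Thbs1, Thbs2, Tnc, Spp1, Ccn5, Sparc, Postn, Tgfbi, Fn1 and Npnt, chosen by name as a protein family. They are 10 of the 27567 genes that the array names, and 21 of its 41121 probes measure them. Ccn5 is listed on the array under its older name Wisp2, and a second Postn probe is listed as A630052E07Rik. Of the 21 probes, 20 were above background often enough to be tested. All 10 genes had at least 1 of these.

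RNA was measured on 11 Agilent 1-colour mouse arrays. The KO-labelled arrays (5) came from cardiac progenitors, called mesoangioblasts in the study, of dystrophic mice null for beta-sarcoglycan. The WT-labelled arrays (3) came from the same kind of cell of wild-type mice. Each progenitor array is labelled atrium, ventricle or aorta. C2C12, an established mouse myoblast line used as the control for muscle differentiation, had 3 arrays. The labels give no strain, age, passage or culture state, and do not say whether a culture was a clone or a pool of animals. Arrays that differed by less than the noise between repeated spots were averaged and counted as 1 sample. This left 3 KO-labelled samples (atrium, ventricle, aorta), 3 WT-labelled samples (atrium, ventricle, aorta) and 2 C2C12 samples (slides 1 and 3, and slide 2). Each region is thus 1 sample per genotype. The p-values rest on the variation among these samples, which for the progenitors is variation among regions and may be technical.

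Matricellular proteins are secreted into the extracellular matrix but are not its main scaffold. They bind cell-surface receptors, growth factors and collagen, and they change how firmly a cell holds to its surroundings. In the heart they are known for being induced in fibroblast-like cells after injury and overload. Adhesive matrix proteins such as fibronectin and nephronectin carry the sequences that integrins, the cell's main matrix receptors, recognise.

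Each array had between 49.0% and 62.0% of its probes above background, and no spot was saturated. Values are log2 signals from which each array's own 75th percentile was subtracted. A value of 0 therefore stands for that percentile, and 1 unit is a 2-fold step. Values are compared between samples for 1 gene, not between genes. No slide held both genotypes, so slide and genotype cannot be told apart except through C2C12, which was on all 3 slides. The slide-blocked value sets each genotype against the C2C12 arrays of its own slides. Region and position on the slide cannot be told apart. Sgcb, the gene for beta-sarcoglycan, did not check the labels: its brightest probe read 2.64, 2.99 and 2.34 in KO-labelled atrium, ventricle and aorta, against 2.07, 2.20 and 1.82 in the WT-labelled samples in the same order. The difference of 0.63 did not pass the test (adjusted p = 0.0728), and the labels do not say which exon is deleted. All 6 skeletal myoblast markers (Myod1, Myf5, Myog, Cdh15, Chrna1, Des) were above background on every KO-labelled and every C2C12 array, whereas none was on all WT-labelled arrays and Myf5, Myog and Cdh15 were on none. Their summed signal, as a multiple of the 75th percentile, was 46.4 to 149 in KO-labelled samples, 0.0999 to 0.146 in WT-labelled samples and 70.5 to 152 in C2C12. Of 6 pericyte and mesoangioblast markers, 4 were above background on all KO-labelled arrays, 2 on all WT-labelled arrays and 4 on all C2C12 arrays. Alpl and Rgs5 were on no progenitor array. The summed signal of this list was 33.7 to 34.75 in KO-labelled samples, 8.04 to 10.9 in WT-labelled samples and 55.6 to 63.3 in C2C12. Des is in both lists, and this list does not set KO-labelled cells apart from a myoblast line. Of 6 endothelial markers none was above background on any progenitor array. Of 6 fibroblast markers, 3 were above background on all KO-labelled, 4 on all WT-labelled and 3 on all C2C12 arrays. Their summed signal was 72.8 to 76.0, 78.8 to 136 and 76.2 to 80.6 in the same order. For 4 smooth muscle markers it was 139 to 282, 26.8 to 160 and 282 to 310. For 6 cardiomyocyte markers it was 19.1 to 40.6, 2.45 to 6.44 and 22.8 to 49.2. The part of these differences in the results below was not tested.

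KO-labelled and WT-labelled progenitors differed most clearly in Tgfbi, which fell in KO-labelled cells, and in Thbs2, Sparc and Spp1, which rose. With limma, adjusted p was under 0.05 in the higher direction for 3 of the 10 genes, against 13.7% of the 15002 genes tested, and in the lower direction for 1 of 10, against 16.1%. The median difference was 0.80 over the 10 genes and -0.06 over all genes tested. All 3 KO-labelled samples were above all 3 WT-labelled samples for 5 of the 10 genes (Thbs1, Thbs2, Spp1, Sparc, Npnt), against 22.1% of genes, and all below for 1 (Tgfbi), against 27.2%. The slide-blocked fit called none of the 10 genes, with adjusted p of 0.0535 for Thbs2, 0.0975 for Tgfbi, 0.148 for Sparc and 0.223 for Spp1. All 4 kept their direction in it. Its SE was larger than that of the main fit, at 0.997 against 0.497 for Thbs2 and 2.33 against 1.16 for Tgfbi. For Sparc it was 0.39 against 0.19, and for Spp1 0.36 against 0.18. The plot of levels by sample shows all 10 genes.

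**Figure D1:**
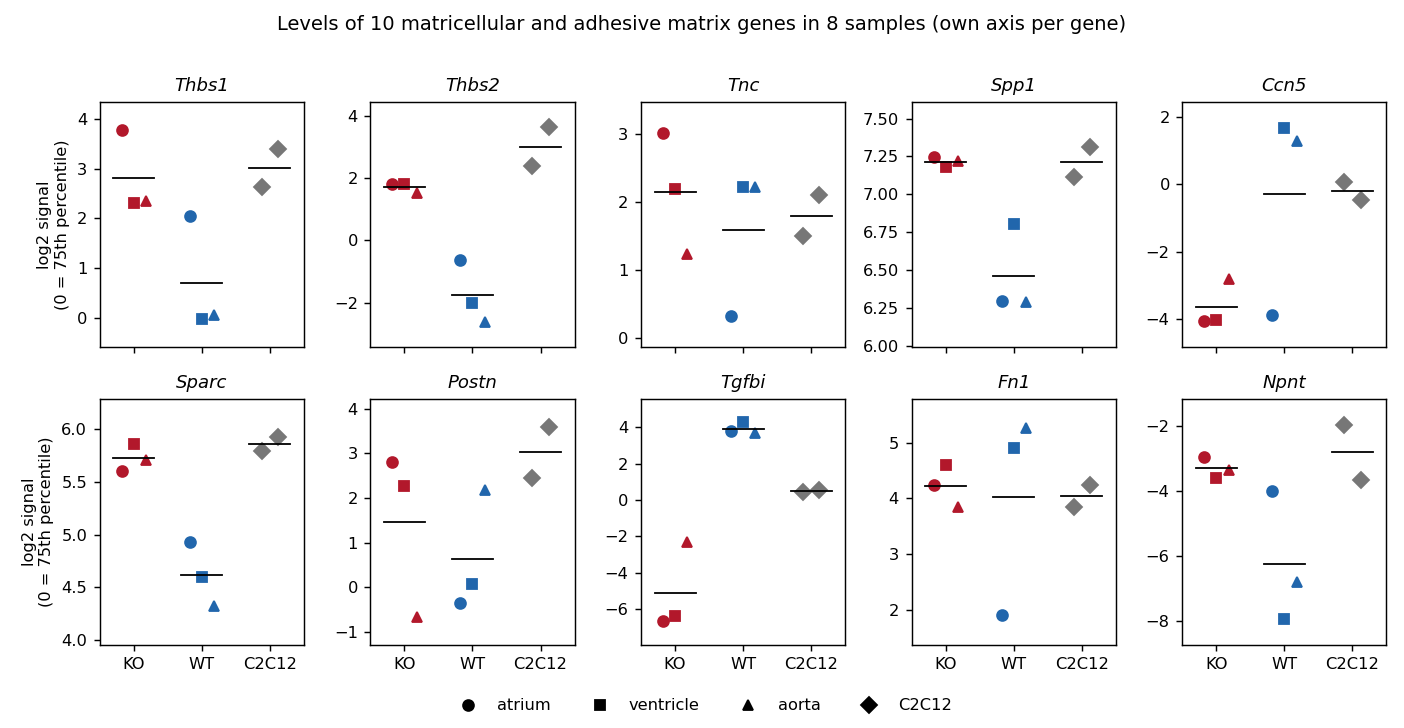
Level of each gene in every sample (log2 signal of its brightest probe, 0 is the array's 75th percentile; each gene has its own axis). Points are samples, circles atrium, squares ventricle, triangles aorta and diamonds C2C12, and black lines are group means. Tgfbi sits between -6.66 and -2.30 in KO-labelled samples and between 3.66 and 4.27 in WT-labelled samples, and Thbs2 between 1.52 and 1.82 in KO-labelled samples and between -2.61 and -0.63 in WT-labelled samples.

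The promoters of the 4 genes that passed the test are shown because 3 of them rose together and 1 fell. They are the 250 bases before the start of each gene in RefSeq, build GRCm38.p6. Of the 10 genes, 7 had a RefSeq promoter to match. Thbs1, Fn1 and Ccn5 did not. The motifs searched on both strands were an AP-1 site (TGANTCA), an E-box of the myogenic kind (CAGCTG), a TEAD site (GGAATG) and a TATA box (TATAAA), and capitals mark a match. Thbs2 lies at chr17:14694263-14694512 on the minus strand, Sparc at chr11:55420081-55420330 on the minus strand, Spp1 at chr5:104434861-104435110 on the plus strand and Tgfbi at chr13:56609336-56609585 on the plus strand.
Thbs2: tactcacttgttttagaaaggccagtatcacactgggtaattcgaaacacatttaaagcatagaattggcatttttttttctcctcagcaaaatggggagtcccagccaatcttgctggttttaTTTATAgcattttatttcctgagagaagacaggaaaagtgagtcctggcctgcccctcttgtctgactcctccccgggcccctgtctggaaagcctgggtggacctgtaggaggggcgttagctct
Sparc: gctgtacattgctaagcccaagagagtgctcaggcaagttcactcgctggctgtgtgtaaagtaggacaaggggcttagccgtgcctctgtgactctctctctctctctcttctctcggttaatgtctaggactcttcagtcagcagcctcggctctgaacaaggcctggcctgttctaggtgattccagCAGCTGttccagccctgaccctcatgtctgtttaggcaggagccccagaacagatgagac
Spp1: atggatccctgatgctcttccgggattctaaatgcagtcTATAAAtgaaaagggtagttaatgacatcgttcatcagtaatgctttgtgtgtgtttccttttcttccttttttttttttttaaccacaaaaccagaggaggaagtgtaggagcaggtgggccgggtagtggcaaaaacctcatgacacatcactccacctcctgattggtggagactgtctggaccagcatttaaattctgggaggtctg
Tgfbi: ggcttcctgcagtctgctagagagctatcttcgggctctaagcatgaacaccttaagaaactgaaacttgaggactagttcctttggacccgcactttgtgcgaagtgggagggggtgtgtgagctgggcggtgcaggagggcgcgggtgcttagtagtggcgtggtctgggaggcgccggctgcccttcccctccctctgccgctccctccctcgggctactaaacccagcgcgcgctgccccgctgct
The Sparc promoter held 1 E-box, which begins 60 bases before the start. Those of Spp1 and Thbs2 held 1 TATA match each, which begins 211 and 126 bases before the start. The Thbs2 match is on the opposite strand and so reads in reverse complement. Tgfbi held none of the 4. Over 32851 promoters of the same length, 13.0% held the E-box, 12.4% the TATA match, 12.6% the TEAD site and 6.75% the AP-1 site. Among the other matched promoters, that of Tnc held 1 TATA match, and those of Postn and Npnt held none of the 4 motifs.

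Among the thrombospondins and tenascin, which loosen adhesion, Thbs2 stood apart between the genotypes in every region. Thbs2 encodes thrombospondin-2, a secreted inhibitor of angiogenesis that also limits matrix metalloproteinase activity. Its probe (mm8 chr17:14404116-14405379) read 1.82, 1.80 and 1.52 in KO-labelled atrium, ventricle and aorta. It read -0.63, -2.01 and -2.61 in the WT-labelled samples in that order, and 2.38 and 3.64 in C2C12. The KO-labelled samples lay close together, above every WT-labelled sample and below both C2C12 samples. Thbs2 was 11.0-fold higher in KO-labelled than in WT-labelled cells (log2 difference 3.47, SE 0.50, adjusted p = 0.00408, n = 3 each, limma). The slide-blocked difference was larger, 4.72, but its adjusted p was 0.0535. The promoter with the TATA match on the opposite strand is that of this gene.

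Thbs1 encodes thrombospondin-1, an activator of latent TGF-beta that binds the receptors CD36 and CD47. Its brightest probe (mm8 chr2:117817480-117817539) read 3.77, 2.30 and 2.35 in KO-labelled atrium, ventricle and aorta, and 2.05, -0.02 and 0.05 in WT-labelled atrium, ventricle and aorta. In C2C12 it read 2.63 and 3.39. Atrium was the highest region in both genotypes, and the groups did not overlap. The KO-labelled mean was 4.33-fold that of WT-labelled cells, a difference of 2.11 (SE 0.69) that missed the threshold (adjusted p = 0.0642, limma). Its 3 probes gave 1.99 to 2.11. Leaving out WT atrium moved the difference to 2.79 (adjusted p = 0.0106), and with region as a block it was 2.11 with adjusted p = 0.0058. The slide-blocked value was 2.88 (adjusted p = 0.329).

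Tnc encodes tenascin-C, a large glycoprotein that counteracts fibronectin-mediated spreading and appears in remodelling tissue. Its brightest probe (mm8 chr4:63446146-63446191) read 3.01, 2.19 and 1.24 in KO-labelled atrium, ventricle and aorta, and 0.33, 2.23 and 2.23 in WT-labelled atrium, ventricle and aorta. In C2C12 it read 1.5 and 2.11. The groups overlapped, with WT atrium alone low among the WT-labelled samples and a descending order of atrium, ventricle and aorta in the KO-labelled samples. The difference was 0.55 (95% interval -1.08 to 2.18, adjusted p = 0.584, limma), and the other 2 probes gave 0.16 and 0.56.

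Sparc and Spp1 encode secreted phosphoproteins that bind collagen or mineral. Sparc (osteonectin) helps collagen fibrils assemble. Its brightest probe (mm8 chr11:55237934-55237993) read 5.61, 5.86 and 5.71 in KO-labelled atrium, ventricle and aorta, against 4.93, 4.6 and 4.32 in the WT-labelled samples. C2C12 read 5.79 and 5.93. KO-labelled samples overlapped C2C12 and lay above every WT-labelled sample. Sparc was 2.16-fold higher in KO-labelled than in WT-labelled cells (difference 1.11, SE 0.19, adjusted p = 0.00835, n = 3 each, limma). Its second probe (mm8 chr11:55239370-55242027) gave a larger difference, 1.82 (SE 0.21, adjusted p = 0.00183). The slide-blocked difference of the brightest probe was 1.25 (adjusted p = 0.148).

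Spp1 encodes osteopontin, an integrin and CD44 ligand made by activated stromal cells and macrophages. Its probe (mm8 chr5:104681071-104681130, spotted 10 times on each array) read 7.25, 7.18 and 7.22 in KO-labelled atrium, ventricle and aorta. It read 6.29, 6.8 and 6.29 in the WT-labelled samples, and 7.12 and 7.31 in C2C12. The KO-labelled samples spanned only 0.07, lay above all WT-labelled samples and within the C2C12 range. Spp1 was 1.69-fold higher in KO-labelled than in WT-labelled cells (difference 0.75, SE 0.18, adjusted p = 0.0251, n = 3 each, limma). The call was the least stable of the 4: it was lost with region as a block (adjusted p = 0.0569), with the slide block, with normexp background correction, with no filter on dim probes, and on leaving out KO atrium, KO ventricle, KO aorta or WT aorta (adjusted p = 0.0874, 0.065, 0.0803 and 0.0861). Its direction held throughout.

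Tgfbi and Postn encode relatives that share fasciclin domains and link integrins to collagen. Tgfbi (TGF-beta-induced protein) showed the widest separation between the genotypes of the 10. Its probe (mm8 chr13:56648721-56648780) read -6.66, -6.40 and -2.30 in KO-labelled atrium, ventricle and aorta, against 3.79, 4.27 and 3.66 in the WT-labelled samples. C2C12 read 0.41 and 0.56. All WT-labelled samples were high, C2C12 was intermediate, and the KO-labelled samples were low, with only the 2 KO aorta arrays above background. In aorta, where both genotypes were measured above background, KO minus WT was -5.97 on the log2 scale. The fit across regions gave an adjusted p of 0.0027 (limma, n = 3 each) for the lower level in KO-labelled cells. Its difference of -9.03 (SE 1.16) includes readings near background and is not an exact size. The slide-blocked difference was -8.88 (adjusted p = 0.0975). The summed signal of 6 macrophage and blood markers was 0.157 to 0.224 in KO-labelled samples, 1.20 to 2.34 in WT-labelled samples and 0.210 to 0.233 in C2C12. Their part in this result was not tested. Of the 6, 2 were above background on all KO-labelled arrays and 3 each on all WT-labelled and all C2C12 arrays. Ptprc and Adgre1 were on no array, and Lyz2 was on no KO-labelled or C2C12 array.

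Postn encodes periostin, which binds collagen and integrins and marks activated fibroblasts of the injured heart. Its bright probe (mm8 chr3:54478490-54478549) read 2.81, 2.26 and -0.66 in KO-labelled atrium, ventricle and aorta. It read -0.36, 0.06 and 2.19 in the WT-labelled samples, and 2.45 and 3.61 in C2C12. Aorta was thus the lowest KO-labelled and the highest WT-labelled region, and the groups overlapped. The difference was 0.84 (95% interval -1.82 to 3.49, adjusted p = 0.609, limma). The second probe (mm8 chr3:54468959-54469018) was above background on no array and was not tested.

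Fn1 and Npnt encode integrin ligands with the RGD cell-binding sequence. Fn1 (fibronectin) is the general adhesive scaffold protein of mesenchymal cells. Its brightest probe (mm8 chr1:71524056-71526293, spotted 10 times) read 4.24, 4.59 and 3.85 in KO-labelled atrium, ventricle and aorta, and 1.92, 4.91 and 5.25 in WT-labelled atrium, ventricle and aorta. C2C12 read 3.85 and 4.25. WT atrium lay below every other sample, and WT ventricle and aorta above every other. The difference of 0.20 had a 95% interval of -1.95 to 2.36 (adjusted p = 0.887, limma), and 4 probes gave 0.01 to 0.22. Without WT atrium it turned to -0.85, with adjusted p = 0.0495. The array description warns that the source clone of 1 of these probes may be chimeric.

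Npnt encodes nephronectin, a ligand of integrin alpha 8 beta 1 in basement membranes. Its brightest probe (mm8 chr3:132821741-132821800) read -2.94, -3.58 and -3.34 in KO-labelled atrium, ventricle and aorta, and -3.98, -7.91 and -6.78 in WT-labelled atrium, ventricle and aorta. C2C12 read -1.94 and -3.66. It was above background on all KO-labelled and C2C12 arrays and on the atrium array alone among the WT-labelled ones. The fitted difference of 2.94 (SE 0.97) did not pass the test (adjusted p = 0.0671, limma). It passed narrowly with region as a block (adjusted p = 0.0494). Without WT atrium it was 4.06 (adjusted p = 0.00193), but no WT-labelled reading left in that fit was above background. The value of 4.06 is therefore not an exact size, and its p-value is no separate support for a difference. The other 2 probes were above background on no WT-labelled array and were at least 2.13-fold and at least 1.90-fold higher in KO-labelled cells when every probe was tested by itself (adjusted p = 0.0446 and 0.0077). They passed the filter on dim probes through the KO-labelled arrays alone, and their tests used background readings for the WT-labelled samples. These p-values are therefore no separate support for a difference. The slide-blocked difference of the brightest probe was 1.22 (adjusted p = 0.808).

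Ccn5 encodes a CCN family protein that, unlike its relatives, lacks the C-terminal domain and opposes fibrotic signalling in the heart. Its probe (mm8 chr2:163524422-163524481) read -4.07, -4.02 and -2.82 in KO-labelled atrium, ventricle and aorta. It read -3.88, 1.68 and 1.30 in the WT-labelled samples, and 0.07 and -0.47 in C2C12, above background on every array. WT atrium lay among the KO-labelled samples, while WT ventricle and aorta were the highest of all samples. The difference of -3.34 (SE 1.49) did not pass the test (adjusted p = 0.146, limma). Without WT atrium it was -5.13 with adjusted p = 0.00134. Leaving out WT atrium therefore changed the count for the 10 genes from 3 higher and 1 lower to 5 higher and 3 lower. In that fit 19.8% of the 14681 genes tested were called higher and 20.3% lower, so calls were also more frequent over all genes. The genes added were Thbs1 and Npnt as higher and Ccn5 and Fn1 as lower. For Npnt the WT-labelled readings in that fit were all at background.

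**Figure D2:**
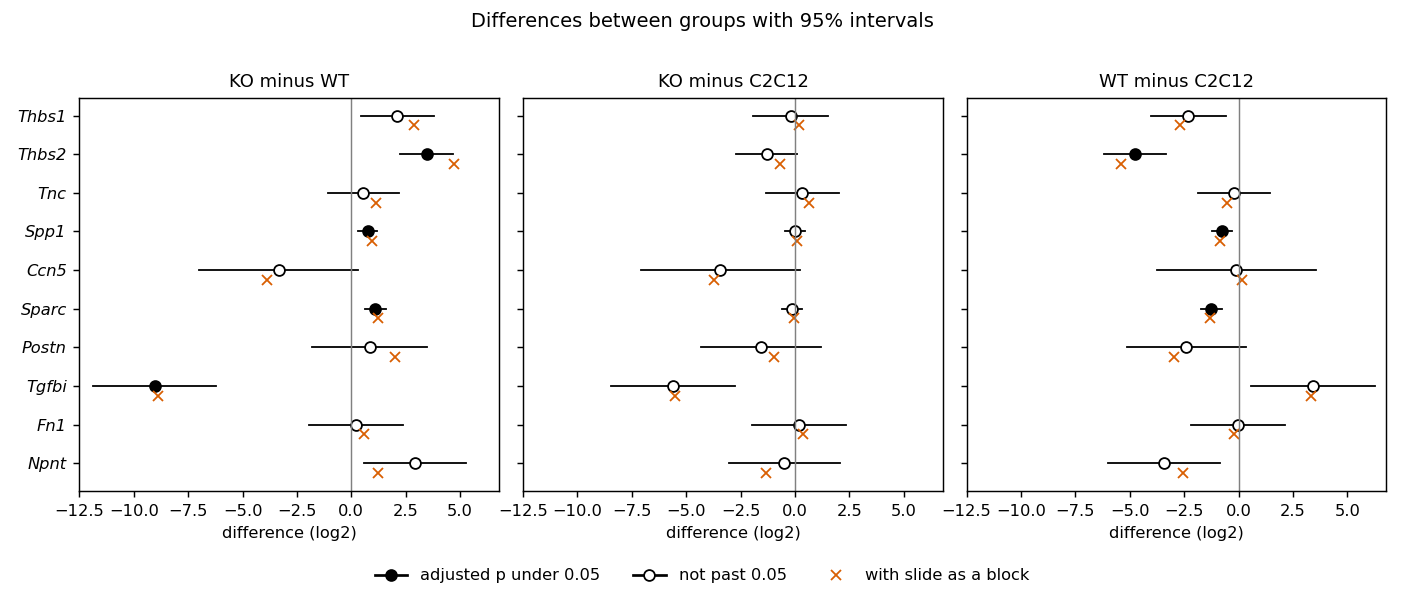
Differences between groups for the 10 genes (log2, x axis) in the 3 comparisons. Circles are fitted differences with 95% intervals, filled where adjusted p was under 0.05, and crosses are slide-blocked differences. For KO minus WT, filled circles stand at 3.47 for Thbs2, 1.11 for Sparc, 0.75 for Spp1 and -9.03 for Tgfbi.

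The regions differed within each genotype, and WT atrium stood apart for several genes. WT atrium was at least 2-fold below both WT ventricle and WT aorta for 3 of the 10 genes (Tnc, Fn1, Ccn5), against 7.49% of all genes tested. It was at least 2-fold above both for 3 others (Thbs1, Thbs2, Npnt), against 5.17%. For Npnt the WT ventricle and WT aorta readings were not above background, so the size of its step is not known. This count was chosen after the values were seen, and each region is 1 sample, so it has no test. The gap between WT atrium and the mean of the other WT regions was -5.36 for Ccn5, -3.16 for Fn1, -1.90 for Tnc, 2.03 for Thbs1 and 1.68 for Thbs2. The range over the 3 regions had a median of 0.99 for the 10 genes in KO-labelled samples and 2.03 in WT-labelled samples, against 0.34 and 0.54 over all genes tested. WT ventricle and WT aorta lay within 0.35 of each other for Thbs1, Tnc, Sparc and Fn1, and 2.13 apart for Postn. KO ventricle and KO aorta were 2.92 apart for Postn, higher in ventricle, and 4.10 apart for Tgfbi, higher in aorta.

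Set region against region, KO minus WT was above 0 in all 3 regions for Thbs1 (atrium 1.72, ventricle 2.32, aorta 2.30), Thbs2 (2.45, 3.81, 4.13), Sparc (0.68, 1.26, 1.39), Spp1 (0.95, 0.38, 0.93) and Npnt (1.04, 4.34, 3.43). It was below 0 in all 3 regions for Tgfbi (-10.45, -10.68, -5.97) and Ccn5 (-0.19, -5.70, -4.12). For Tgfbi only the aorta value, and for Npnt only the atrium value, compares readings above background in both genotypes. The others of these 2 genes include readings near background and are not exact sizes. For Tnc, Postn and Fn1 the sign changed between atrium and aorta.

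**Figure D3:**
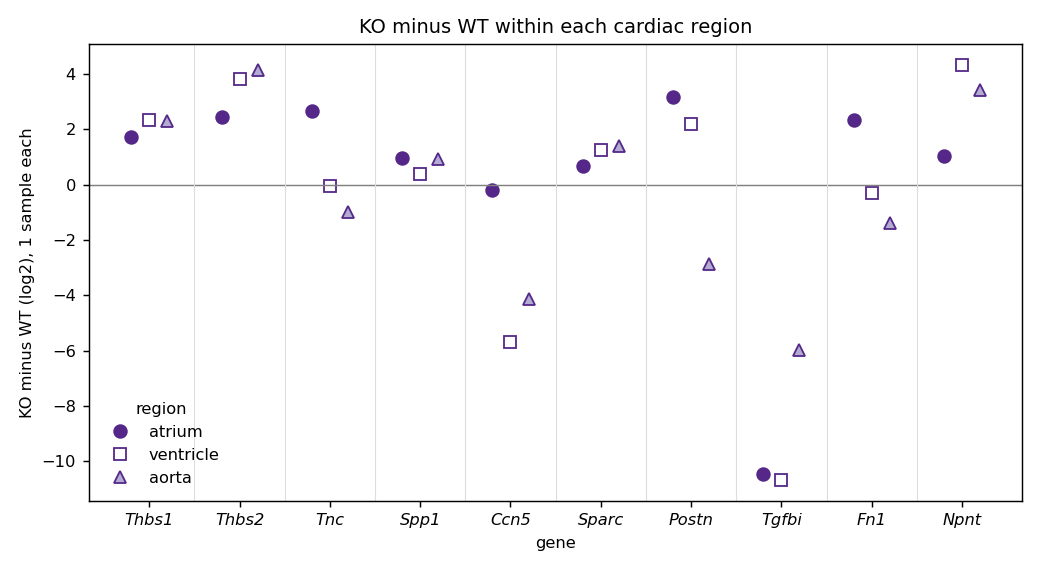
KO minus WT (log2, y axis) within atrium (filled circles), ventricle (open squares) and aorta (shaded triangles) for each gene, 1 sample of each genotype per point. Postn lies at 3.17, 2.20 and -2.85 from atrium to aorta, and Fn1 at 2.32, -0.31 and -1.40.

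The comparison with C2C12 asks how far each progenitor group stood from a myoblast line. No gene of the 10 passed the test between KO-labelled cells and C2C12 in limma, against 0.664% of the 15807 genes tested in the higher and 0.588% in the lower direction. At an unadjusted p under 0.05 there was 1 of the 10, against 12.5% of all genes tested. This was Tgfbi (difference -5.61, adjusted p = 0.0952), which did pass without KO aorta (-7.02, adjusted p = 0.0014, with readings near background). The 95% intervals of KO minus C2C12 were -0.61 to 0.34 for Sparc and -0.45 to 0.45 for Spp1, and -2.70 to 0.11 for Thbs2, so Thbs2 may still differ. For Ccn5 the KO-labelled samples lay below both C2C12 samples, with a difference of -3.44 and adjusted p = 0.432. Without WT atrium, which enters through the shared spread, the adjusted p of that difference was 0.0192.

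WT-labelled cells were lower than C2C12 in Thbs2, Sparc and Spp1. Thbs2 was lower by 4.76 on the log2 scale (SE 0.60, adjusted p = 0.00142), Sparc by 1.25 (SE 0.20, adjusted p = 0.0044) and Spp1 by 0.75 (SE 0.19, adjusted p = 0.0264) in limma with 3 WT-labelled and 2 C2C12 samples. This was 3 of the 10 genes, against 13.2% of all genes tested. In the higher direction there was none, against 13.8%, and Tgfbi, at 3.42, had an adjusted p of 0.0763. Thbs1 (-2.31), Npnt (-3.42) and Postn (-2.40) also lay below both C2C12 samples but did not pass (adjusted p = 0.0558, 0.0558 and 0.176). With every probe tested by itself, the other probes of Thbs1 (adjusted p = 0.0469 each) and of Npnt (0.0277 and 0.0107) were called lower. Those of Npnt were above background on no WT-labelled array. With the slide as a block, which here means the C2C12 sample on the same slide, Thbs2 (-5.39, adjusted p = 0.00594) and Sparc (-1.32, adjusted p = 0.0287) still passed. Spp1 did not (-0.85, adjusted p = 0.0835). Its call against C2C12 held in 10 of 17 alternatives and was also lost with normexp background correction (adjusted p = 0.103), with no filter on dim probes (0.0722), and on leaving out WT aorta (0.0775), KO aorta (0.0501), the C2C12 sample of slides 1 and 3 (0.0807) or that of slide 2 (0.155). This comparison shares the WT-labelled samples with the comparison of genotypes.

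Related genes were grouped by role, and the counts of each list stand against the 13.7% of all genes called higher and the 16.1% called lower in the same comparison. Of 31 other matricellular and adhesive matrix genes, 30 were on the array and 18 were tested. Of these, 8 were higher and 3 lower in KO-labelled than in WT-labelled cells (median difference 0.87). Smoc2, a calcium-binding matrix protein of the Sparc family, read 2.20, 0.37 and 1.82 in KO-labelled atrium, ventricle and aorta and was above background on no WT-labelled array, which makes it at least 82.4-fold higher (adjusted p = 0.000175, limma). Spock2 (testican-2), a proteoglycan of the same family, read 0.92, 0.51 and 0.70 in the KO-labelled samples and was at least 49.0-fold higher on the same ground (adjusted p = 4.06e-05). The differences over its 3 probes ran from 2.01 to 7.80. Smoc2 and Spock2 passed with the slide block too (adjusted p = 0.0152 and 0.00243). Smoc1, a further relative, exceeded its WT-labelled level at least 5.47-fold (adjusted p = 0.0254, slide-blocked 0.791). Sparcl1 (hevin), a Sparc relative with anti-adhesive activity, read -6.41, -5.74 and -4.70 in the KO-labelled samples, above background on 2 of 5 arrays, against 1.07, -1.70 and -2.42 in the WT-labelled samples, and was lower (adjusted p = 0.0161, slide-blocked 0.212). Sparc and its relatives thus did not all move one way.

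Among 17 receptors of these proteins, 13 were tested, of which 6 were higher and 3 lower in KO-labelled cells (median 1.02). Cd47, a thrombospondin-1 receptor, read 3.89, 4.0 and 4.27 in the KO-labelled samples, against 2.33, 2.65 and 2.59 in the WT-labelled samples, 2.90-fold higher (adjusted p = 0.00142, slide-blocked 0.027). Its 4 probes gave differences from 0.14 to 1.53. Itgb3, the beta 3 subunit that pairs with alpha v to bind osteopontin and fibronectin, was 4.98-fold higher by its brighter probe (difference 2.32, adjusted p = 0.0327), while its other probe gave a difference of 0.46. Itgb6, the epithelial partner of alpha v, was measurable on 3 of 5 KO-labelled arrays and on no WT-labelled array, which puts it at least 2.31-fold higher (adjusted p = 0.00705). Itga8, which encodes the nephronectin-binding subunit, was above background on no KO-labelled array and at least 5.51-fold lower (adjusted p = 0.00119). Also lower were Itgav, the alpha v subunit itself (difference -0.79, adjusted p = 0.00894), and Cd44 (-1.01, adjusted p = 0.0168). Further receptors called higher were Sdc1 (1.30, adjusted p = 0.00112, slide-blocked 0.0408) and Itga5 (1.015, adjusted p = 0.0251, slide-blocked 0.48). Sdc4 was higher by its brighter probe (1.10, adjusted p = 0.00303, slide-blocked 0.133), while its other probe gave -2.68. The receptors of osteopontin thus did not all move one way. With the slide as a block Itgb3, Itgb6, Itga8, Itgav and Cd44 did not pass (adjusted p = 0.258, 0.674, 0.0804, 0.164 and 0.152).

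Of 15 TGF-beta ligands, receptors and targets, all tested, 2 were higher and 4 lower in KO-labelled cells (median -0.27), with the share of higher calls close to that over all genes. The ligands Tgfb2 (difference 3.75, adjusted p = 0.00162) and Tgfb1 (1.82, adjusted p = 0.00578) were higher. The co-receptor gene Tgfbr3 was above background on no KO-labelled array and at least 5.36-fold lower (adjusted p = 0.00271), and Ltbp2, which encodes a member of the latent TGF-beta binding protein family, was lower by 1.61 (adjusted p = 0.0453). None of the 15 passed with the slide as a block. Of 14 matrix proteases and cross-linkers, 13 were tested, of which 1 was higher and 3 lower (median -0.35). At this list size these counts are not set apart from the shares over all genes. Mmp3 (stromelysin-1), which cleaves fibronectin and proteoglycans, read -6.78, -5.38 and -7.15 in the KO-labelled samples, above background on 1 of 5 arrays, against 2.45, 1.25 and -0.19 in the WT-labelled samples (adjusted p = 0.00108, slide-blocked 0.0563). Adamts1, a protease that cleaves thrombospondins, was lower by 1.27 (adjusted p = 0.0123), and Bmp1, a procollagen C-proteinase, by 0.81 at its brighter probe (adjusted p = 0.0371) but with a difference of only -0.055 at its other probe. Loxl2, a collagen cross-linker, was higher by 2.71 in the fit (adjusted p = 0.0384), above background on 1 of 3 WT-labelled arrays, and its other probe gave 1.48. None of the 13 passed with the slide as a block. Mmp9, Cd36, Itga4, Itga9 and Stab1, and 12 of the other matricellular genes, among them Vtn, Thbs4 and Tnxb, were not above background often enough to be tested. Of the 6 fits that each left out 1 progenitor sample, Itgb3, Ltbp2, Bmp1 and Loxl2 were called in 1, Smoc1 and Itga5 in 2 and Sparcl1 and Cd44 in 4. Itga8 and Tgfbr3 were tested in 3 of these fits and Itgb6 in 4, and were called in each fit that tested them. The fits that did not test them left out a sample above background, after which the probe failed the filter on dim probes. For these genes the calls are therefore no check of stability. The other list genes named with values were called in all 6.

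**Figure D4:**
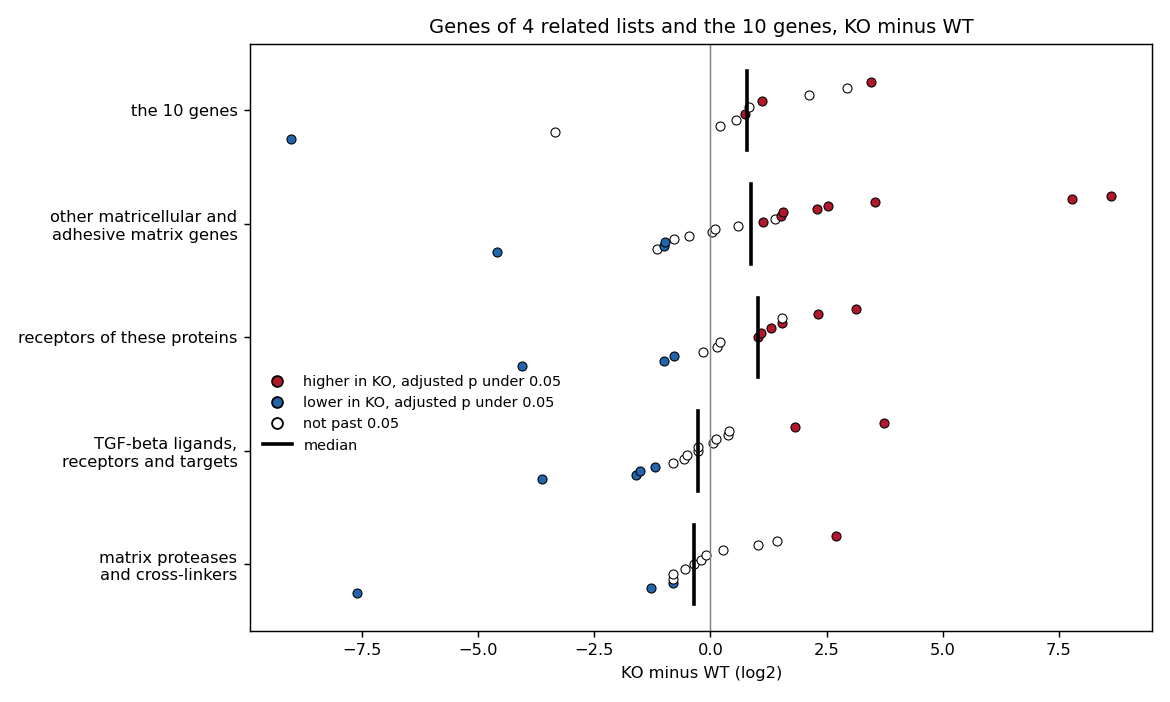
KO minus WT differences (log2, x axis) of the 10 genes and of the tested genes of 4 related lists. Each point is a gene, red where higher and blue where lower in KO-labelled cells at adjusted p under 0.05, white otherwise, and black bars are medians. Medians stand at 0.80 for the 10 genes, 0.87 for other matricellular genes, 1.02 for receptors, -0.27 for TGF-beta genes and -0.35 for proteases and cross-linkers.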

How the data were processed

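The authors deposited the spot intensity output of the scanner for each array, made with version 9.5.3.1 of Agilent Feature Extraction according to the submitters' processing notes. Background subtraction and detrending were done by that software per the file headers, and arrays were not scaled to each other. A second deposited table gives log2 values for the whole series, which matched log2 of the mean processed signal within 0.01 for over 99% of probes on every array. It was used as an alternative.

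Control spots and spots marked as outliers were left out and repeated spots were averaged. Log2 values were centred on each array's 75th percentile. Arrays of a group were averaged where their log2 differences (SD) were smaller than the spot noise. This held for 3 of 16 pairs (KO ventricle, KO aorta and C2C12, each on slides 1 and 3), at 0.577 to 0.69 of the noise. The remaining pairs lay at 2.52 times the noise or above. Probes above background on at least 3 fitted arrays were tested with limma 3.58.1 in R 4.3.3 (lmFit, eBayes), with the brightest probe per gene (Sgcb: each probe by itself), over 6 heart samples for KO with WT and all 8 samples for the comparisons with C2C12. Benjamini-Hochberg adjustment ran over all genes tested, and adjusted p under 0.05 was called. All adjusted p of single genes in the text are limma's. A gene above background on no array of a group is given as "at least N-fold", where each array of the dim group enters at its lowest above-background signal or at the probe's own signal, if that is higher. Such a gene passed the filter on dim probes through the other group alone, and its adjusted p rests in part on background readings. The number of arrays limits the precision.

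Names were updated through RefSeq tables of GRCm38.p6 (24340 probes by accession, 6299 by symbol, 2418 by synonym, 8064 kept). Probe positions come from the array design (build mm8), and exon and UTR annotation of that build was not used here. Alternatives were another centring, quantile normalization, normexp background correction with offset 50, the deposited table, other filters on dim probes, every probe by itself, every array as its own sample, slide or region as a block, all 8 samples for KO with WT, and leaving out each sample. The fitting step was tested on simulated data. Other software was Python 3.11.15 with numpy 2.4.6, pandas 2.3.3 and matplotlib 3.10.9. The genes, the lists, the markers and the joining of arrays were chosen with earlier results of these data known. All 10 genes are named, and up to 4 called genes per list with the largest KO minus WT difference. Itgav, Cd44, Sdc1, Sdc4 and Itga5 were added to these as the remaining receptors called lower or higher.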

Additional observations from a re-analysis of the deposited data

Results flagged for a closer look

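For Tnc, Postn and Fn1 the difference between genotypes changed sign between regions, with 1 sample of each genotype per region, and this change was not tested. Tnc was 2.68 higher in the KO-labelled than in the WT-labelled atrium, whereas KO minus WT was -0.0397 in ventricle and -0.99 in aorta. Postn gave 3.17 in atrium and 2.20 in ventricle but -2.85 in aorta. Fn1 gave 2.32 in atrium, -0.31 in ventricle and -1.40 in aorta. All values are log2 differences. Arrays averaged into 1 sample differed by at most 0.0446 for Tnc and Postn and 0.032 for Fn1. Such pairs existed only for KO ventricle, KO aorta and C2C12, and they were averaged because they were alike. KO atrium and every WT-labelled region had a single array, so these values do not measure how repeatable the change of sign is. No group held enough samples for a check of single outlying samples.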

How the results depend on the processing

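Slides limit the comparison of genotypes most. The slide-blocked fit also had larger SEs, as given above. With the slide as a block KO minus WT called 0 of the 10 genes higher and 0 lower (3 and 1 without it) and 891 of all genes (4468 without it), KO minus C2C12 called 27 genes (198) and WT minus C2C12 2286 (4265). With every array as its own sample the 10 genes gave 5 higher in KO than WT, against 3015 of the 15002 genes tested. They gave 1 lower in KO than C2C12 (Tgfbi), against 774 of 15807. In WT against C2C12 they gave 1 higher (Tgfbi) and 5 lower, against 3489 and 3176 of 15807. In all, 6657 genes were called for KO minus WT, and 1628 and 6665 for KO and WT against C2C12. This setting counts near-identical arrays as separate samples and so overstates the number of samples. With normexp background 2793, 45 and 2499 genes were called for KO minus WT, KO minus C2C12 and WT minus C2C12, 1 of the 10 (Tgfbi) was higher in WT than C2C12, and the share of calls that were higher was 68.9% for KO minus C2C12, against 53.0%. With no filter on dim probes 99 genes were called for KO minus C2C12. Centring on the median moved the median KO minus WT difference of all genes by 0.11.

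Leaving out 1 sample gave 2 to 5 genes of the 10 higher and 1 to 3 lower for KO minus WT, 0 to 1 lower for KO minus C2C12, and 0 to 2 higher and 2 to 5 lower for WT minus C2C12. It gave 2645 (without WT aorta) to 5874 (without WT atrium) genes called for KO minus WT, 13 (without the C2C12 sample of slides 1 and 3) to 459 (without WT atrium) for KO minus C2C12, and 2278 to 5622 for WT minus C2C12.

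Small differences changed sign. These were, for WT minus C2C12, Ccn5 (main -0.10) at 0.18 with normexp, 0.17 with the slide block and -1.09 to 1.69 on leaving out a sample, Fn1 (-0.02) at 0.0452 with every array as its own sample, 0.0446 with normexp and -0.64 to 1.03, and Tnc (-0.21) at -0.52 to 0.43. For KO minus C2C12 they were Thbs1 (-0.20) at 0.18 with the slide block and -0.68 to 0.18, Spp1 (0.0017) at -0.0442 with normexp and -0.0949 to 0.10, Fn1 (0.18) at -0.0195 to 0.38, Npnt (-0.49) at -1.34 to 0.37 and Tnc (0.34) at -0.0884 to 0.80. For KO minus WT they were Fn1 (0.20) at -0.85 to 0.82 and Tnc (0.55) at -0.0813 to 1.00. Some of the changed values were not small. Without WT atrium, Ccn5 (1.69, adjusted p = 0.0335) and Fn1 (1.03, adjusted p = 0.0336) were called higher in WT-labelled cells than in C2C12. The cause was not tested. Thbs2, Sparc and Tgfbi were called for KO minus WT in 16 of 17 alternatives, all but the slide block, and Spp1 in 9. Over all alternatives 449 differences of single genes kept their direction and side of the threshold, 23 changed sign, 18 lost and 20 gained a call. The alternatives share samples, and several leave a difference unchanged by construction. Such counts are therefore not independent checks. The labels give no animals or numbers that pair samples. No paired analysis was possible because of this, and the region block left the count of the 10 genes within 1.5 times. It ended the call of Spp1 and added those of Thbs1 and Npnt, as given above.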

Other observations

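For each of the 10 genes, the other genes whose values ran most like it over the 8 samples were looked up among the 15807 genes tested against C2C12. The values share samples, slides and group differences, so Pearson's r is a description. The highest r was 0.996 for Sparc, with Epha1 and Sema3b, and 0.991 for Thbs2, with Foxc1 and Bmp4. Ccn5 ran most like Gng11 (0.995) and Cd302 (0.981), and Tgfbi most like Slc2a10 (0.992) and D230040A04Rik (0.986). Spp1 ran most like Tuba1a and Atp5j (0.99 each), Npnt like Tdp1 (0.988) and R3hdm1 (0.987), Thbs1 like AK089315 (0.99) and Lrrc59 (0.976), and Fn1 like Trappc12 (0.976). The lowest values were those of Tnc, with Zyx (0.925) and R3hcc1 (0.913), and of Postn, with Naa30 (0.905) and Ube2g2 (0.901).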
